A study of Homo sapiens with 6 samples.

Results

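The miRNAs described here are hsa-miR-9-5p, hsa-miR-124-3p, hsa-miR-219a-1-3p and hsa-miR-219a-2-3p (the human prefix hsa is left out below), all from hairpins best known in the nervous system, as measured in exosomes of skin cells. They were taken by name from the deposited tables of known miRNAs and make up 4 of the 161 known rows. Exosomes, small vesicles that cells release, were collected by ultracentrifugation from the medium of HaCaT, an established human keratinocyte line, and their small RNA was sequenced. In the H2O2 group 3 cultures received 0.4 mM hydrogen peroxide, an oxidant, and in the untreated group 3 cultures received none. The labels call the replicates biological and carry times of 24, 25 and 26 h for H2O2 replicates 1, 2 and 3, whereas the design text states 24 h for all of them, so time and replicate number cannot be told apart. Both groups come from 1 cell line, and the sources used here do not say how its medium was supplemented.

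miRNAs are short RNAs that guide Argonaute proteins to messenger RNAs, mainly through the seed, bases 2 to 8. Each hairpin yields a 5p and a 3p arm, and often 1 arm is kept in far larger amounts. miR-9 is a miRNA of neural progenitors and also occurs in epithelial cells and tumours. miR-124 is the hallmark miRNA of neurons, where it represses the splicing regulator PTBP1. miR-219 is enriched in oligodendrocytes, the myelin-forming cells, and promotes their differentiation, and its 5p arm is the arm known for this. The rows measured here are its 3p arms, the less studied products of the MIR219A1 and MIR219A2 hairpins.

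The mature sequences below are shown because they decide which reads can be told apart, with the seed in capitals. They come from RefSeq (GRCh38.p14), which matched 3 of the 4 members.
miR-9-5p: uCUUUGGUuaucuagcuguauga
miR-219a-1-3p: aGAGUUGAgucuggacgucccg
miR-219a-2-3p: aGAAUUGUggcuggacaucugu

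The 2 miR-219a 3p arms are each 22 bases long and have the same base at 15 positions. They differ at 7 positions, 2 of them in the seed, and their longest shared stretch is 6 bases, so a full-length read of 1 arm is not a read of the other. Their 5p arms are identical over all 21 bases. Of the listed known rows 136 had a RefSeq sequence, and 0 of these shared a seed with any of the 3 members. miR-219a-2-3p also lies opposite miR-219b-5p, a miRNA of the other strand, and is the reverse complement of it over 20 bases. The sources used here do not say whether the authors' counting used strand.

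The miR-9-5p sequence is the same in 3 hairpins, shown here with the mature miRNA in capitals, so its reads cannot be assigned to 1 gene.
MIR9-1: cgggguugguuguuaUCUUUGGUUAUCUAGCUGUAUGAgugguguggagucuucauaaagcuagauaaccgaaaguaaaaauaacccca
MIR9-2: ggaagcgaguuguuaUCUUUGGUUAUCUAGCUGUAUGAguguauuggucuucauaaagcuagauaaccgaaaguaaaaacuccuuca
MIR9-3: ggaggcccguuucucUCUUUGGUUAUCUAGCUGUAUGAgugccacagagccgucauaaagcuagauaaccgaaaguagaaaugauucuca

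MIR9-1 lies at chr1:156420341-156420429 on the minus strand, in an intron of C1orf61 in GENCODE release 29. MIR9-2 lies at chr5:88666853-88666939 on the minus strand, within an exon of the long non-coding RNA gene LINC00461. MIR9-3 lies at chr15:89368017-89368106 on the plus strand, in an intron of MIR9-3HG. The miR-219a 3p arms each have 1 hairpin, shown with the 3p arm in capitals.
MIR219A1: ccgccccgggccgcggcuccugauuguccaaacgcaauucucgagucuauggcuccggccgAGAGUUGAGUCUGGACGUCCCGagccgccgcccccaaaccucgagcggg
MIR219A2: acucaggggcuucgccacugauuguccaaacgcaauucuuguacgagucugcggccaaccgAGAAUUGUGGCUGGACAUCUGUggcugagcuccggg

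MIR219A1 lies at chr6:33207835-33207944 on the plus strand, in no other annotated gene and 551 bases from RING1, the nearest protein-coding gene. MIR219A2 lies at chr9:128392618-128392714 on the minus strand, within an exon of the long non-coding RNA gene AL359091.1 and 602 bases from URM1.

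Levels are in CPM, counts per 1000000 reads of the library total behind the authors' normalized values, which ranged from 2449856 to 4131478 reads in the H2O2 libraries and from 2644362 to 5405525 in the untreated libraries. miR-1246 alone took 3.32%, 0.261% and 27.4% of the total in H2O2 replicates 1 to 3, and between 0.130% and 1.15% in untreated libraries, which lowers the CPM of every other miRNA in H2O2 replicate 3. The tables hold rows selected by the authors for a difference, with p-values of at most 0.049 and an absolute log2 fold change of at least 1.03 in the authors' deposited table, so counts of calls describe that selection. The keratinocyte identity of the exosomes could not be checked against its defining miRNAs. Of the 14 listed keratinocyte hairpins 4 had a row, and the other 10 had none among the selected rows. The 5 rows of those 4 hairpins summed to between 5147 and 5878 CPM in H2O2 libraries and between 10395 and 13975 CPM in untreated libraries. Of these 5 rows miR-31-3p passed as higher and 4 passed as lower, and their part in the values of the members was not tested. In such bulk samples more vesicles of 1 kind and more copies per vesicle cannot be told apart.

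miR-9-5p was higher and miR-219a-1-3p lower in H2O2 exosomes than in untreated exosomes. miR-124-3p was close to the detection limit in every library but H2O2 replicate 2, and miR-219a-2-3p was close to it throughout, with 6 counts at most. Of the 4 members, 2 had at least 5 counts in at least 3 libraries and could be tested with edgeR, and the other 2 had too few counts. The neural label therefore covers 1 abundant miRNA, 1 scarce one and a pair that was nearly absent.

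miR-9-5p was abundant, with 3993, 5505 and 3887 CPM in H2O2 replicates 1, 2 and 3 and 2252, 2041 and 1745 CPM in untreated replicates 1, 2 and 3. All 3 H2O2 libraries lay above all 3 untreated libraries, and H2O2 replicate 2 was the highest. These levels rest on 12295, 13487 and 16058 counts in H2O2 libraries and on 7125, 5398 and 9434 counts in untreated libraries, so counting error is small beside the spread between cultures. Among the 161 known rows miR-9-5p ranked 7th, 4th and 6th by level in H2O2 replicates 1, 2 and 3, and 11th, 11th and 12th in untreated replicates 1, 2 and 3.

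The mean level of miR-9-5p was 4462 ± 905 CPM in H2O2 exosomes and 2013 ± 255 CPM in untreated exosomes (SD, n = 3 each), a ratio of 2.22. In the fit with edgeR's quasi-likelihood test the log2 fold change was 1.15 ± 0.38 (SE; adjusted p = 0.0264, by Benjamini-Hochberg over all tested rows). Of the 127 known rows tested, 30.7% passed in the same direction, so a passing rise is common among these selected rows. The balance of 39 known rows passing as higher and 61 as lower was 24 and 66 with median-of-ratios scaling and 45 and 47 with the totals reduced by their miR-1246 reads. These scalings shifted the log2 fold changes of the known rows by a median of -0.28 and 0.17, and the values of the members below moved with them. With the totals reduced by their miR-1246 reads, miR-9-5p was at 4130, 5520 and 5357 CPM in H2O2 replicates 1 to 3, against 2255, 2049 and 1766 CPM in untreated replicates 1 to 3. On that scale H2O2 replicate 3 stood beside replicate 2, and the log2 fold change was 1.31 ± 0.42 (edgeR adjusted p = 0.0225). With median-of-ratios scaling, whose factors came from these same selected rows, it was 0.84 ± 0.45 and did not pass (edgeR adjusted p = 0.105).

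The rise of miR-9-5p kept its direction but lost its call in all but 1 of the 6 runs without a library. It no longer passed without H2O2 replicate 1 (1.22, edgeR adjusted p = 0.0595), H2O2 replicate 2 (0.97, adjusted p = 0.0579), untreated replicate 1 (1.24, adjusted p = 0.0664), untreated replicate 2 (1.16, adjusted p = 0.0719) or untreated replicate 3 (1.06, adjusted p = 0.0515). Without H2O2 replicate 3 it passed, at 1.24 (edgeR adjusted p = 0.0304). With the adjustment set for 2000 tests, an assumed number that allows for miRNAs left out by the selection, the edgeR adjusted p was 0.284. The authors' deposited table gives miR-9-5p a log2 fold change of 1.30 and an unadjusted p-value of 0.000754.

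**Figure D1:**
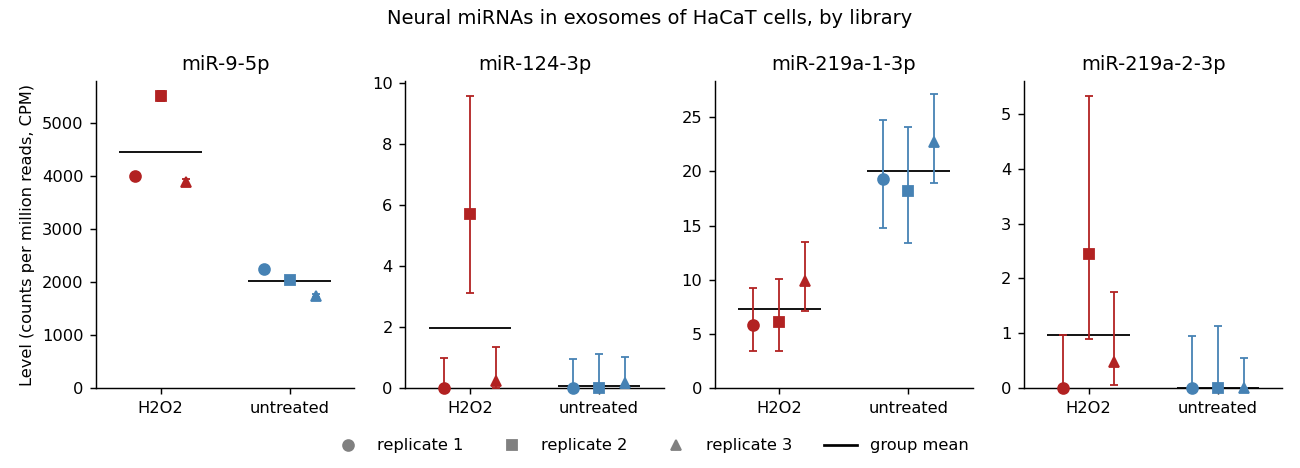
Level (CPM, y axis, a separate linear scale for each miRNA) of the 4 miRNAs in the 3 H2O2 and 3 untreated libraries. Points are libraries, vertical bars are exact 95% Poisson intervals of the counts (for a count of 0, up to 3 counts) and horizontal lines are group means. miR-9-5p lies between 3887 and 5505 CPM in H2O2 libraries, above every untreated library, and miR-219a-1-3p lies below every untreated library. The other 2 are highest in H2O2 replicate 2.

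miR-219a-1-3p went the other way and was scarce. It was at 5.85, 6.12 and 9.92 CPM in H2O2 replicates 1, 2 and 3, against 19.3, 18.2 and 22.8 CPM in untreated replicates 1, 2 and 3. All H2O2 libraries lay below all untreated ones, and H2O2 replicate 3 was the highest of its group. Those levels come from 18, 15 and 41 counts in H2O2 libraries and 61, 48 and 123 counts in untreated libraries. The exact 95% Poisson intervals reached 13.5 CPM at most in H2O2 libraries (replicate 3) and went down to 13.4 CPM in untreated libraries (replicate 2), so single libraries of the 2 groups came close at this depth.

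The mean level of miR-219a-1-3p was 7.30 ± 2.28 CPM in H2O2 exosomes and 20.1 ± 2.40 CPM in untreated exosomes (SD, n = 3 each), a ratio of 0.364. The log2 fold change was -1.45 ± 0.46 (SE; edgeR adjusted p = 0.0262), where 48.0% of the tested known rows passed as lower. It stood close to the median log2 fold change of -1.23 over the 127 tested known rows. Without miR-1246 reads in the totals H2O2 replicate 3 was at 13.7 CPM, and the log2 fold change of -1.22 ± 0.54 did not pass (edgeR adjusted p = 0.0503).

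The fall of miR-219a-1-3p passed without H2O2 replicate 3 (-1.74, edgeR adjusted p = 0.0331), untreated replicate 2 (-1.51, adjusted p = 0.0441) or untreated replicate 3 (-1.34, adjusted p = 0.0394). It did not pass without H2O2 replicate 1 (-1.31, edgeR adjusted p = 0.0811), H2O2 replicate 2 (-1.34, adjusted p = 0.0518) or untreated replicate 1 (-1.48, adjusted p = 0.0535), and the edgeR p adjusted as for 2000 miRNAs was 0.282. The authors' deposited table gives it a log2 fold change of -1.27 and an unadjusted p-value of 0.00683.

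**Figure D2:**
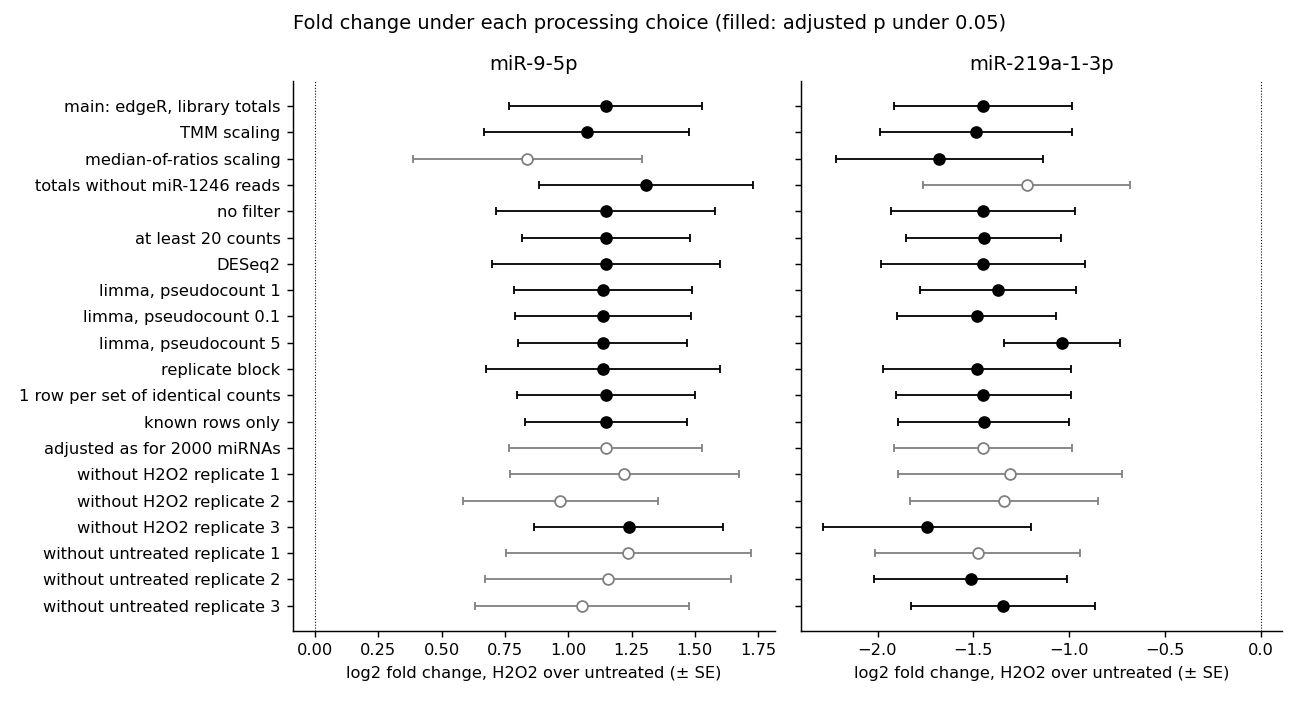
Fitted log2 fold change (x axis, H2O2 over untreated, bars ± SE) of miR-9-5p and miR-219a-1-3p under the main fit and 19 alternatives (y axis), with filled points for an adjusted p under the threshold of 0.05. All values are above 0 for miR-9-5p and below 0 for miR-219a-1-3p, while the call is lost under 7 alternatives for miR-9-5p and under 5 for miR-219a-1-3p.

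Since the 2 testable members differed in opposite directions, their ratio within a library was also compared, in which the library total cancels. There were 683, 899 and 392 counts of miR-9-5p for each count of miR-219a-1-3p in H2O2 replicates 1, 2 and 3, and 117, 112 and 76.7 in untreated replicates 1, 2 and 3. The lowest H2O2 library stood above the highest untreated one. The mean ratio was 658 ± 255 in H2O2 exosomes and 102 ± 22.0 in untreated exosomes (SD, n = 3 each). On the log2 scale the difference was 2.61, with an exact two-sided permutation p of 0.1, the smallest that 3 against 3 allows. The 2 rows were chosen with their directions known, so this ratio describes them and adds no support to either call.

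**Figure D3:**
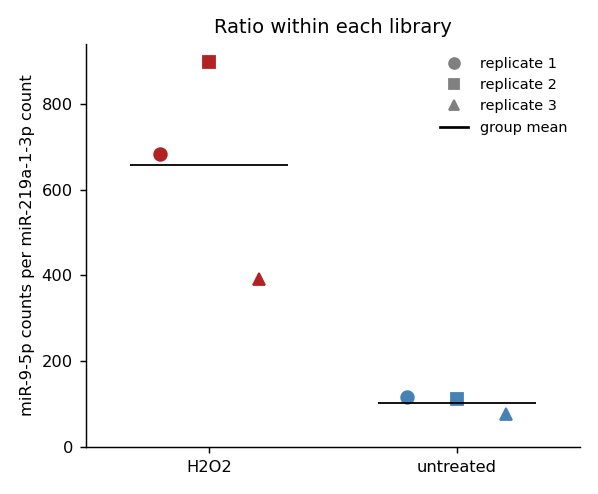
Counts of miR-9-5p for each count of miR-219a-1-3p (y axis, linear from 0) in each H2O2 and untreated library, with group means as lines. The H2O2 libraries lie between 392 and 899 and the untreated libraries between 76.7 and 117.

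Of the 4 members, miR-9-5p was higher and miR-219a-1-3p lower with groups that did not overlap. Groups that do not overlap were found in 37.3% of the 161 known rows as higher and in 46.6% as lower. The groups of miR-124-3p and of miR-219a-2-3p overlapped.

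miR-124-3p, the neuronal miRNA, had 0, 14 and 1 counts in H2O2 replicates 1, 2 and 3 and 0, 0 and 1 counts in untreated replicates 1, 2 and 3. As levels these were 0, 5.71 and 0.242 CPM in H2O2 libraries and 0, 0 and 0.185 CPM in untreated libraries. H2O2 replicate 2 was the only library above 1 count, with an exact 95% Poisson interval of 3.12 to 9.59 CPM, and the upper limits of the other 5 libraries were 0.948 to 1.35 CPM, where a count of 0 was given the 3 counts it allows. Summed over libraries there were 15 counts in 9660428 H2O2 reads and 1 count in 11213439 untreated reads, a ratio of 17.4 with an exact 95% counting interval of 2.68 to 733 that holds no spread between cultures. Without H2O2 replicate 2 the sums were 1 count in H2O2 and 1 count in untreated libraries.

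The difference of mean log2(CPM + 1) in miR-124-3p was 0.94, and it was 0.07 without H2O2 replicate 2. The exact two-sided permutation p over all 6 libraries was 0.4, in a design of 3 against 3 that cannot go below 0.1, so this test could not have passed. The size of the difference rested on H2O2 replicate 2 and also depended on the pseudocount, at 2.04 with 0.1 and 0.37 with 5 in place of 1. The authors' deposited table lists miR-124-3p as higher, with a log2 fold change of 4.10 and a p-value of 0.0258. With no filter on low counts edgeR gave an adjusted p of 0.0504.

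miR-219a-2-3p had 0, 6 and 2 counts in H2O2 replicates 1, 2 and 3 and 0 counts in each untreated library. Its levels were 0, 2.45 and 0.484 CPM in H2O2 libraries, while a count of 0 allows up to 0.948, 1.13 and 0.555 CPM in untreated replicates 1, 2 and 3 (3 counts). H2O2 replicate 1 was also at 0. The exact 95% Poisson interval was 0.899 to 5.33 CPM in H2O2 replicate 2 and reached 1.75 CPM in H2O2 replicate 3. Pooled over the group, the H2O2 level of 0.828 CPM was 3.10 times an untreated level set at 3 counts over all untreated reads. The 8 H2O2 counts enter this ratio without their counting error, so it is not a lower bound. Without H2O2 replicate 2, 2 counts remained in 7210572 H2O2 reads (0.277 CPM), which is fewer than 3 counts, so no ratio is given.

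The difference of mean log2(CPM + 1) for miR-219a-2-3p was 0.79, and 0.28 without H2O2 replicate 2, with the same limit on the exact two-sided permutation test (p = 0.4 over all 6 libraries). It was 2.41 with a pseudocount of 0.1 and 0.24 with 5. The authors' deposited table gives a log2 fold change of 4.77 and a p-value of 0.036. With no filter edgeR gave an adjusted p of 0.0480, a call that rests on 8 counts in all. By level, miR-219a-1-3p was highest of its group in H2O2 replicate 3 (9.92 CPM), with 5.85 and 6.12 CPM in replicates 1 and 2. miR-219a-2-3p was highest in H2O2 replicate 2, from 6 counts. The difference between the arms was not tested.

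**Figure D4:**
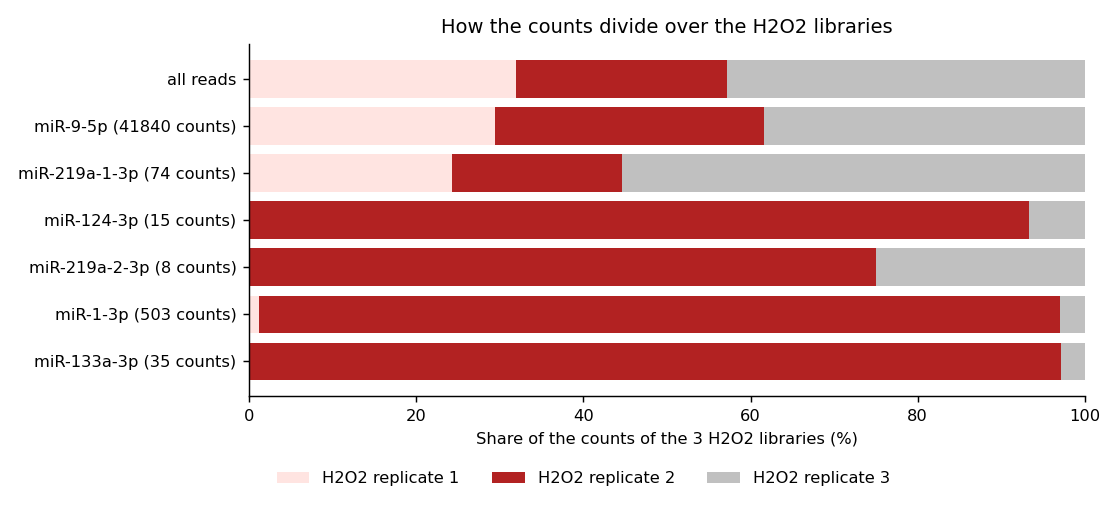
Share (x axis, %) of the summed counts of the 3 H2O2 libraries that came from each library, for all reads, the 4 neural miRNAs and the 2 muscle miRNAs miR-1-3p and miR-133a-3p. H2O2 replicate 2 holds 25.4% of all reads and 32.2% of miR-9-5p counts, but 93.3% of miR-124-3p and 95.8% of miR-1-3p counts.

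H2O2 replicate 2 held 25.4% of all H2O2 reads and the lowest library total. It held 32.2% of the miR-9-5p counts of the H2O2 group (exact 95% binomial interval 31.8% to 32.7%) and 20.3% of those of miR-219a-1-3p (11.8% to 31.2%). In contrast it held 93.3% of the miR-124-3p counts (68.1% to 99.8%) and 75.0% of the miR-219a-2-3p counts (34.9% to 96.8%). The intervals cover counting error only.

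The same library also stood apart for muscle miRNAs. miR-1-3p, a miRNA of heart and skeletal muscle, had 1.95, 197 and 3.63 CPM in H2O2 replicates 1, 2 and 3 and 5.37, 12.9 and 2.59 CPM in untreated replicates 1, 2 and 3. miR-133a-3p, its partner from the same muscle transcripts, had 0, 34 and 1 counts in H2O2 replicates 1 to 3 and 0 counts in each untreated library. H2O2 replicate 2 thus held 95.8% of the miR-1-3p counts and 97.1% of the miR-133a-3p counts of its group. Of the 4 muscle hairpin names 2 had a row, and their summed level was 1.95 to 211 CPM in H2O2 libraries and 2.59 to 12.9 CPM in untreated libraries. Their part in the miR-124-3p and miR-219a-2-3p values was not tested.

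In H2O2 replicate 2 the summed level of the blood cell and serum miRNAs lay below that of every untreated library. The authors listed 0 of these rows as higher and 5 as lower, so a lower sum in H2O2 libraries follows from that selection. It cannot show whether replicate 2 held blood or serum material. In that list 5 of 8 hairpin names had a row, and their summed level was 240, 447 and 76.7 CPM in H2O2 replicates 1 to 3, against 878, 1294 and 510 CPM in untreated replicates 1 to 3. Most of it was miR-16-2-3p (226, 422 and 61.5 CPM in H2O2 replicates 1 to 3). In the H2O2 group miR-451a (1.62, 5.31 and 1.94 CPM) and miR-122-5p (4.55, 9.80 and 7.02 CPM) were also highest in replicate 2. miR-486-5p (8.12, 8.16 and 5.32 CPM) was nearly level in replicates 1 and 2, and miR-142-5p was highest in replicate 3 (0.968 CPM). Over the 161 known rows, 9 (5.59%) had a level in H2O2 replicate 2 more than 3 times that of every other library, a limit chosen after the values were seen. The count was 0 for H2O2 replicate 1, 3 for H2O2 replicate 3, and 1, 5 and 1 for untreated replicates 1, 2 and 3. The 9 rows are the members miR-124-3p and miR-219a-2-3p, and miR-329-3p, miR-1-3p, miR-133a-3p, miR-877-3p, miR-3195, miR-4492 and miR-4508. In H2O2 replicate 2, miR-219a-2-3p, miR-3195, miR-329-3p, miR-4492 and miR-124-3p had 6, 8, 10, 12 and 14 counts. The others had 34 to 482. All known rows were selected for a group difference on these same libraries, so this tally describes the selected rows only.

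Few other miRNAs known from neurons and glia were among the rows that the authors listed as different. Of 21 hairpin names, 7 had a row in the tables, giving 8 rows with the 4 members included, of which the authors listed 6 as higher and 2 as lower, where all 161 known rows divide into 79 higher and 82 lower. Of these 8 rows 3 had enough counts to be tested, and 1 passed as higher (miR-9-5p), 1 passed as lower (miR-219a-1-3p) and miR-212-3p did not pass. The median log2 fold change of the 3 was 1.15, which is the value of miR-9-5p itself and describes no shift of the list. Over the 127 tested known rows, selected for a difference in either direction, the median was -1.23. Leaving out miR-9-5p and miR-219a-1-3p, the list summed to 7.47, 18.0 and 3.63 CPM in H2O2 replicates 1 to 3 and 1.58, 2.65 and 5.55 CPM in untreated replicates 1 to 3, so miR-9-5p made up nearly all of its level.

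miR-212-3p, which neurons make in response to activity, had 4.87, 4.49 and 1.21 CPM in H2O2 replicates 1 to 3 and 1.26, 0 and 1.85 CPM in untreated replicates 1 to 3. Its groups overlapped, and the log2 fold change was 1.56 ± 0.85 (edgeR adjusted p = 0.103). miR-129-1-3p had 4, 3 and 3 counts in H2O2 libraries and 0, 1 and 2 counts in untreated libraries. miR-329-3p, from the imprinted DLK1-DIO3 cluster, had 4, 10 and 2 counts in H2O2 libraries and 0, 1 and 5 counts in untreated libraries. miR-135a-3p had 0, 0 and 2 counts in H2O2 libraries and 1, 5 and 12 counts in untreated libraries. These 3 had too few counts to be tested.

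The known miRNAs whose profile over the 6 libraries was nearest to that of miR-9-5p were miR-29b-3p, miR-20a-3p and miR-151a-5p. Their root mean square differences on the centred log2(CPM + 1) scale were 0.19, 0.22 and 0.24, against a median of 1.21 over the 91 candidates. miR-29b-3p was at 343, 370 and 315 CPM in H2O2 replicates 1 to 3 and 144, 133 and 152 CPM in untreated replicates 1 to 3. Nearest to miR-219a-1-3p were miR-502-3p, miR-629-5p and miR-125b-2-3p, at 0.14, 0.16 and 0.16, against a median of 1.20. miR-502-3p was at 102, 99.2 and 126 CPM in H2O2 replicates 1 to 3 and 258, 274 and 278 CPM in untreated replicates 1 to 3. All candidates were selected on the same 6 libraries, so likeness in this sense is a description of them.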

How the data were processed

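Per the labels' protocols, exosomal RNA was isolated with Trizol and a NEBNext small RNA kit was used for the libraries. Per the submitters' processing notes Bowtie 1.1.1 and cutadapt were among the tools, while the sources used here name no build, miRNA catalogue or counting rule. For each library the authors deposited, per the file headers, raw counts and a normalized value, which is CPM of a library total recovered as count over CPM. Each row also holds, as deposited, the authors' fold (a ratio), its log2 and a p-value with no adjustment.

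The members and lists were chosen with earlier results of these data known. The test was edgeR 4.0.16 (R 4.3.3) on the counts (glmQLFit and glmQLFTest, two-sided, H2O2 over untreated) with the recovered totals and no composition factor, which selected rows cannot give. A row entered the fit if 3 or more libraries had 5 or more counts, which left 127 known and 59 predicted rows in 1 fit. P-values were adjusted over them by Benjamini-Hochberg, which does not allow for the rows the authors left out, and the threshold was 0.05. The SE is the log2 fold change over the root of F. The test was tried on simulated data first. Single values were compared by exact permutation over libraries. miRNAs were named as members, as listed neural miRNAs, as the 3 nearest profiles among known rows of at least 5 CPM on average, or, for the library that stands apart, after their values were seen. Lists were matched by hairpin name, either arm. Replicates differed by more than sampling noise. Intervals and limits cover counting error only, since no molecular identifiers are named. Alternatives were DESeq2 1.42.0, limma 3.58.1 on log2(CPM + pseudocount), other library scalings and filters, a replicate block and each library left out.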

Additional observations from a re-analysis of the deposited data

How the results depend on the processing

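Across 19 alternatives the log2 fold change of miR-9-5p stayed positive and that of miR-219a-1-3p negative. Beside the runs without a library, miR-9-5p lost its call with median-of-ratios scaling (0.84) and with adjustment as for 2000 miRNAs (1.15), and miR-219a-1-3p with miR-1246 reads out of the totals (-1.22) and with that adjustment (-1.45). Without 1 library the value ranged from 0.97 to 1.24 for miR-9-5p and from -1.74 to -1.31 for miR-219a-1-3p. These runs have fewer samples. Known calls were 39 higher and 61 lower, 24 higher with median-of-ratios scaling, 2 higher and 0 lower adjusted as for 2000 miRNAs, and 8 to 39 higher and 3 to 41 lower without 1 library. Neural list calls were 1 higher and 1 lower. The higher count was 0 with median-of-ratios scaling, 2 with no filter and 0 adjusted as for 2000 miRNAs, the lower count was 0 without miR-1246 reads and 0 adjusted as for 2000 miRNAs, and each was 0 to 1 without 1 library. For other changes the cause was not tested. The difference of mean log2(CPM + 1) kept its sign for all 4 members in 11 alternatives each. Without 1 library it ranged from 0.07 to 1.45 for miR-124-3p and from 0.28 to 1.18 for miR-219a-2-3p. For miR-219a-2-3p, at 0 counts in every untreated library, no alternative could change the sign. Groups that do not overlap, as for miR-9-5p and miR-219a-1-3p, keep the sign of this difference and of the fold change without any 1 library. The within-library log2 ratio ranged from 2.35 to 2.93.

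Same-numbered replicates deviated together with correlations of 0.197, 0.077 and 0.227 over 186 rows. Among differently numbered replicates only H2O2 replicate 2 with untreated replicate 1 was positive (0.122), and the others ranged from -0.252 to -0.040. These values do not decide whether the numbers are pairs, and the main fit did not take them as pairs. With the replicate block miR-9-5p was at 1.14 (edgeR adjusted p = 0.0405) and miR-219a-1-3p at -1.48 (edgeR adjusted p = 0.0251), and 40 known rows passed as higher and 60 as lower. The block changed no call of the members. Depth limits miR-124-3p and miR-219a-2-3p, for which 1 read was worth 0.185 to 0.408 CPM.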
